A study of Mus musculus with 4 samples.

Results

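The 9 genes described here encode transcription factors that specify cartilage and bone: Sox9, Sox5, Sox6, Runx2, Sp7, Dlx5, Mef2c, Foxa2 and Runx3. They were taken by gene symbol, with no threshold on their values, and all 9 of 9 were found among the 32285 genes of the count matrices. Single-cell RNA-Seq was read in 4 libraries from male C57BL/6J mice aged 20 weeks. Fracture callus and trabecular bone gave 1 library each under placebo (control) and 1 each under the synthetic glucocorticoid prednisolone at 6.25 mg/kg/d (GC), in every case at week 2. By the labels, every mouse received the drug or placebo from a slow-release pellet, whereas the study's methods reserve the pellet for bone loss and describe once-daily dosing for fracture. The number of mice behind a library was not given in the sources used here. With 1 library per group there is no replicate error, no test was run, and every interval below is a 95% interval for counting error only.

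SOX9 starts the chondrocyte program, and SOX5 and SOX6 act with it on the enhancers of cartilage matrix genes. RUNX2 is required for osteoblasts to form and for chondrocytes to become hypertrophic, the last stage before cartilage is replaced by bone. SP7 (osterix) acts after RUNX2 in the bone lineage, and DLX5 is a homeobox factor that acts on both. MEF2C and FOXA2 promote chondrocyte hypertrophy, and RUNX3 shares that task with RUNX2 in cartilage and also has known roles in lymphoid and myeloid cells. Outside the skeleton, SOX6 is known from red cell precursors and MEF2C from B cells, endothelium and muscle.

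In build GRCm38 the SOX genes lie as follows: Sox9 (ENSMUSG00000000567) at chr11:112782224-112787760 on the plus strand, Sox5 (ENSMUSG00000041540) at chr6:143828425-144781977 on the minus strand, Sox6 (ENSMUSG00000051910) at chr7:115470872-116038796 on the minus strand. The bone factors are Runx2 (ENSMUSG00000039153) at chr17:44495987-44814797 on the minus strand, Sp7 (ENSMUSG00000060284) at chr15:102356606-102367182 on the minus strand, Dlx5 (ENSMUSG00000029755) at chr6:6877805-6882085 on the minus strand. The remaining members are Mef2c (ENSMUSG00000005583) at chr13:83504034-83667080 on the plus strand, Foxa2 (ENSMUSG00000037025) at chr2:148042877-148046969 on the minus strand, Runx3 (ENSMUSG00000070691) at chr4:135120652-135177990 on the plus strand.

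After filtering, callus held 6705 control and 6890 GC cells and trabecular bone 3803 and 4601, with a median of 3322.5 to 6369 unique molecular identifiers per cell (UMIs, tags that count captured transcripts once). Cells were clustered over both libraries of a tissue without the 9 genes, and clusters were named from marker genes by a rule settled after the clusters had been seen. Class names such as chondrocytes therefore stand for chondrocyte-like cells throughout. The 4 skeletal classes of callus were chondrocytes (1621 control and 1928 GC cells), hypertrophic chondrocytes (902 and 988), osteoblasts or osteocytes (67 and 67) and stromal and skeletal progenitor cells (127 and 192). Trabecular bone had no chondrocyte or osteoblast class, and its stromal class held 13 and 34 cells. Any pair of libraries shared 6 to 10 barcodes.

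Levels are given in CPM, the usual unit that divides the UMIs of a gene by all UMIs of its class and scales them to a fixed total, the same for every class and library. They count the 3′ ends of transcripts and are compared between classes, never between genes. B cells, which have no known need of SOX9 or SP7, were used as the reference for free RNA. The empty droplets of control callus held Sox9 at 1026 CPM, Mef2c at 208 CPM, Runx2 at 108 CPM, Runx3 at 101 CPM and Sp7 at 69.6 CPM. The GC callus matrix lists no empty droplets, so the same measure could not be taken there.

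The sequences that share a feature among the members are the upstream regions of the 2 RUNX genes. Among the RefSeq promoters of build GRCm38.p6, 6 of the 9 genes had an entry, 16 entries in all. The RUNX recognition letters AACCACA, which read TGTGGTT on the opposite strand, lay within 250 bases upstream of the listed start in 1 entry of Runx2 and 1 of Runx3, and in 4.4% of the 250-base windows of all 32851 entries. Both windows are given 5′ to 3′ on the gene's strand, with AACCACA in capitals. The Runx2 window is chr17:44814628-44814877, minus strand, and the Runx3 window is chr4:135120395-135120644, plus strand. The Runx2 gene interval given above ends at base 44814797, so part of its window, with the match, lies inside that interval. The 2 annotations thus place the start of Runx2 differently.

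Runx2: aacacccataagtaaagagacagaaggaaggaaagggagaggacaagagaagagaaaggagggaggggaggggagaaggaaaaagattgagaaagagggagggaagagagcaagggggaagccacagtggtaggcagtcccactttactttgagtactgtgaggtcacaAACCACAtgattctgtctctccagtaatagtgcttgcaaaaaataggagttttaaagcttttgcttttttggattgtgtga

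Runx3: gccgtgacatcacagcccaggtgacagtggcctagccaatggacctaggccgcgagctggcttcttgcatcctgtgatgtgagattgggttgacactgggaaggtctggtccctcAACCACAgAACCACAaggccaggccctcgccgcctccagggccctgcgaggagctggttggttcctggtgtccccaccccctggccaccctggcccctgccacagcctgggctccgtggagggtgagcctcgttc

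Between the end of the match and the start lay 74 bases in Runx2, and 128 and 120 bases for the pair of matches in Runx3. The longest run of letters that these entries shared, 18 bases, held AACCACA in duplicate and began 136 bases before the start of Runx3 and 21 bases after that of Runx2. The same run was found in 4 of the 32851 entries, which were those of Runx1, Runx2, Runx3 and Gm16225.

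Shared run: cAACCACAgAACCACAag

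The SOX letters AACAAAG, searched on both strands and present in 5.03% of windows, were found upstream of 3 of 6 Sox6 starts and 1 of 3 Mef2c starts. The GC box GGGCGG, likewise searched on both strands and present in 32.7% of windows, was found in entries of Sox6, Runx3, Mef2c and Foxa2. A match is a description of the letters, and 3′ counts do not show which start a transcript used.

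Sox9 was the chondrocyte gene of the group. Its level in chondrocytes was 1552 CPM in control callus (interval 1541 to 1564) and 1304 CPM in GC callus (1289 to 1318), and in hypertrophic chondrocytes it was 1122 and 1145 CPM. The stromal class had 790 and 968 CPM and the osteoblast class 699 and 952 CPM. The order chondrocytes, hypertrophic chondrocytes, stromal cells, osteoblasts held in both libraries, and each step over the pooled libraries was larger than its counting interval. B cells had 101 CPM in control and 41.1 CPM in GC callus, and the highest blood class levels were 105 CPM in control conventional dendritic cells and osteoclasts and 124 CPM in GC promyelocytes, a class that in GC callus included a cluster with cartilage genes among its leading genes. After thinning each cell to 1000 UMIs, 71.8% of control and 71.7% of GC chondrocytes had a Sox9 UMI (intervals 69.5% to 74% and 69.5% to 73.7%), against 9.85% and 3.71% of B cells. Without thinning, the shares in control callus were 99.2% of chondrocytes, at a median of 26397 UMIs, and 17.5% of B cells, at a median of 1927 UMIs.

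Sox5 followed Sox9 but dropped more steeply along hypertrophy. It reached 93.3 CPM in control and 71.6 CPM in GC chondrocytes, 61.6 and 71.1 CPM in stromal cells, 34.3 and 38.4 CPM in hypertrophic chondrocytes and 23.5 and 27.4 CPM in osteoblasts. Stromal cells and chondrocytes were not separated in GC callus, whereas hypertrophic chondrocytes stood below both in each library. Sox6 in the skeletal classes varied less, from 97 and 117 CPM in stromal cells, 83.9 and 83 CPM in chondrocytes and 74.6 and 81.3 CPM in hypertrophic chondrocytes to 57 and 59.9 CPM in osteoblasts. Its highest level lay outside the skeleton, in the erythroid cells of callus, at 1231 CPM in control (207 UMIs in 43 cells) and 2023 CPM in GC (222 UMIs in 50 cells).

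**Figure D1:**
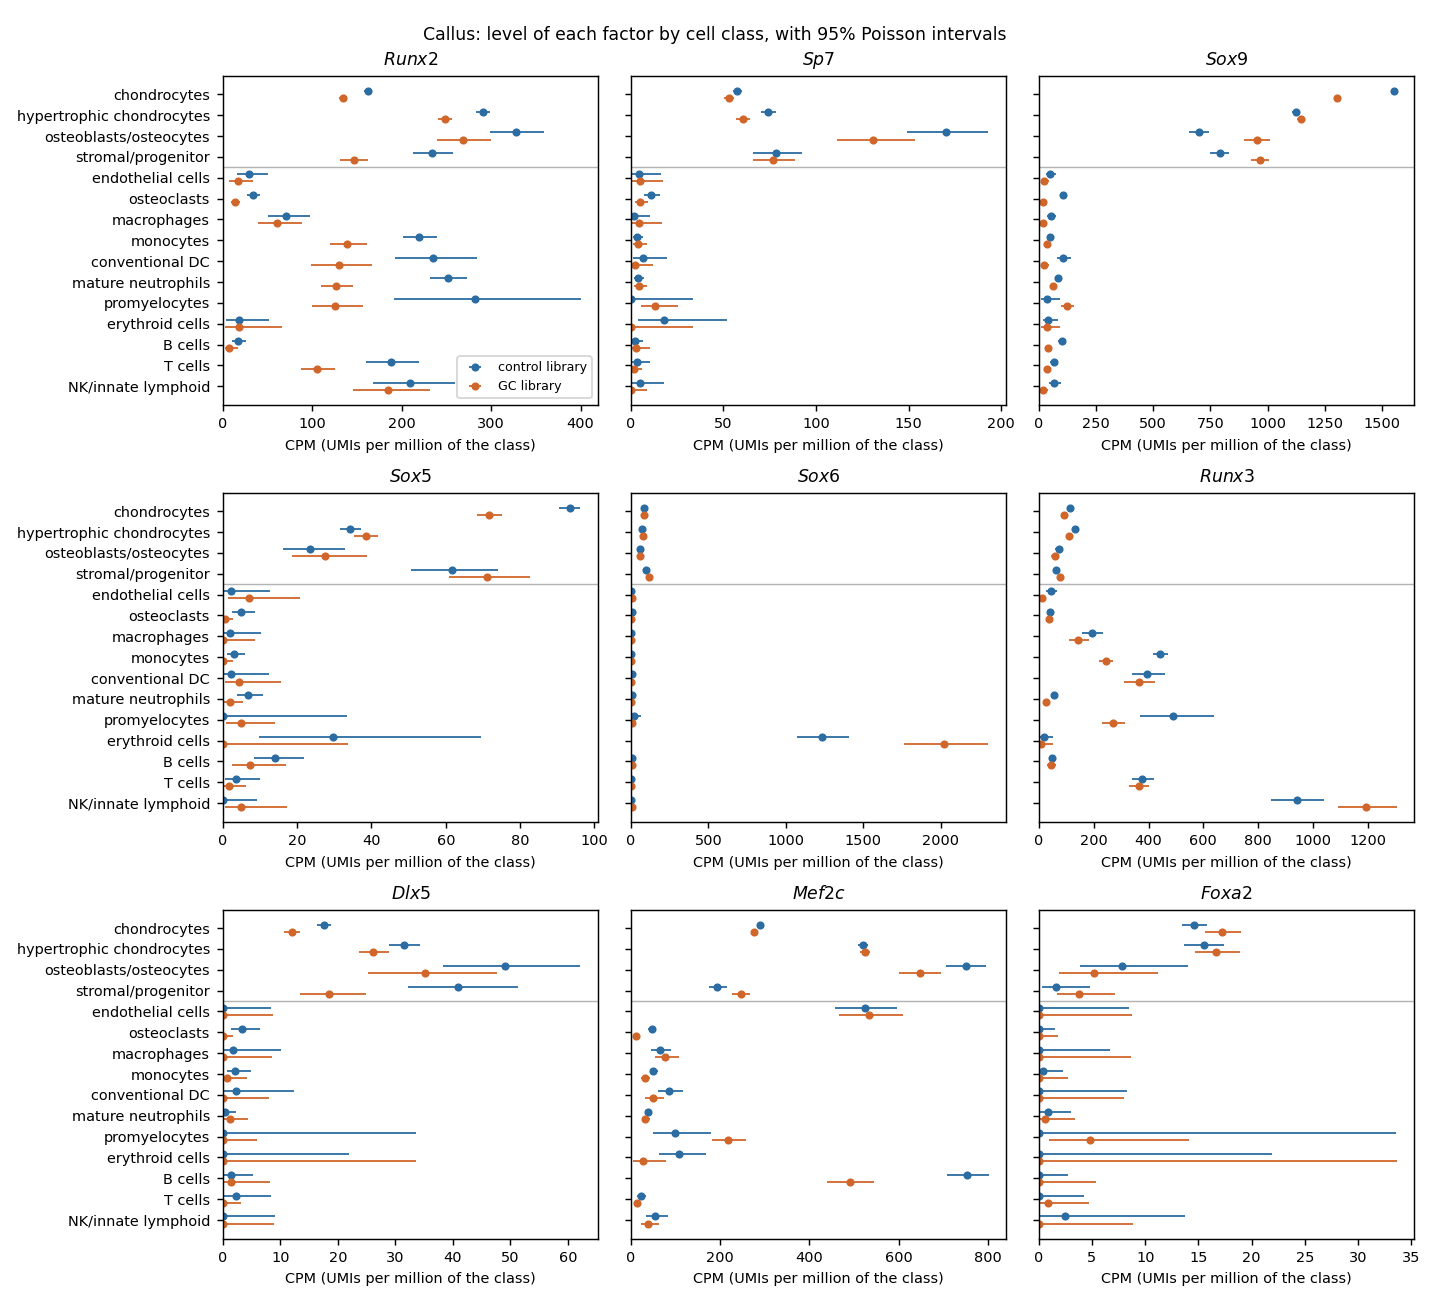
Level of each of the 9 genes (CPM, x axis of each panel from 0) in 15 callus cell classes (y axis), with control callus in blue and GC callus in orange, and 95% Poisson intervals as bars. Sox9, Sox5, Sp7, Dlx5 and Foxa2 were highest in skeletal classes, Sox6 in erythroid cells, Runx3 in natural killer cells, and Runx2 and Mef2c were high in skeletal and blood classes alike.

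Runx2 was spread over skeletal and blood classes. Among skeletal classes it was highest in osteoblasts, at 328 CPM in control (298 to 359) and 269 CPM in GC (240 to 300), then in hypertrophic chondrocytes at 291 and 248 CPM, stromal cells at 234 and 146 CPM and chondrocytes at 162 and 135 CPM. The hypertrophic class was above the chondrocytes in both libraries. Plasmacytoid dendritic cells, with 332 CPM in control callus from 35 cells, were not separated from osteoblasts. Mature neutrophils had 252 CPM in control and 127 CPM in GC callus, monocytes 219 and 139 CPM, T cells 188 and 105 CPM and natural killer cells 210 and 185 CPM. These blood classes lay in the range of the stromal cells, whereas B cells had 17 and 7.33 CPM and osteoclasts 33.5 and 13.2 CPM.

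Of these blood classes, only the mature neutrophils of control callus were set beside free RNA. The part of free RNA in the Runx2 of blood classes was not tested. In control callus the empty droplets held 102 UMIs of Runx2 beside 973 of Sox9, B cells 23 beside 137, and mature neutrophils 600 beside 202. Of the thinned mature neutrophils 23.7% had a Runx2 UMI in control (interval 21.5% to 26.1%), against 2.34% of B cells. The unthinned shares were 28.1% of mature neutrophils, at a median of 1301 UMIs, and 3.48% of B cells, at a median of 1927 UMIs.

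Sp7 and Dlx5 were highest in the skeletal classes, with osteoblasts first. Sp7 was at 170 CPM in control osteoblasts (239 UMIs) and 131 CPM in GC osteoblasts (153 UMIs), at 78.5 and 76.6 CPM in stromal cells, 74.1 and 60.4 CPM in hypertrophic chondrocytes and 57.5 and 52.9 CPM in chondrocytes, and at 2.22 and 2.93 CPM in B cells. Dlx5 was at 49.1 and 35.1 CPM in osteoblasts, 31.5 and 26.2 CPM in hypertrophic chondrocytes, 40.9 and 18.5 CPM in stromal cells and 17.6 and 12 CPM in chondrocytes. For both genes the osteoblast class, over the pooled libraries, exceeded the next class by more than the counting interval. The ranks of stromal cells and hypertrophic chondrocytes for Dlx5 were reversed between the libraries.

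The hypertrophy factors Mef2c and Foxa2 differed in breadth. Mef2c was at 750 CPM in control and 647 CPM in GC osteoblasts, at 520 and 525 CPM in hypertrophic chondrocytes, 289 and 277 CPM in chondrocytes and 194 and 247 CPM in stromal cells. B cells (753 and 490 CPM), plasma cells (466 and 779 CPM) and endothelial cells (524 and 534 CPM) were in the same range, and neighbours in the pooled order of osteoblasts, plasmacytoid dendritic cells, B cells and plasma cells did not differ beyond counting error. Foxa2 was the least counted member, with 958 UMIs in control and 725 in GC callus. It was at 15.5 and 16.7 CPM in hypertrophic chondrocytes and 14.6 and 17.3 CPM in chondrocytes, which did not differ beyond counting error, at 7.83 and 5.14 CPM in osteoblasts from 11 and 6 UMIs, and at 0 UMIs in B cells of both libraries, where 3 UMIs would have been 2.22 and 4.40 CPM.

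Runx3 was mainly a blood cell gene. It was at 940 CPM in control and 1195 CPM in GC natural killer and innate lymphoid cells, at 786 CPM in control plasmacytoid dendritic cells, and at 378 and 364 CPM in T cells, 443 and 243 CPM in monocytes and 396 and 364 CPM in conventional dendritic cells. In the pooled order conventional dendritic cells, monocytes and T cells did not differ from each neighbour beyond counting error. The skeletal classes were lower, at 131 and 109 CPM in hypertrophic chondrocytes, 115 and 91.4 CPM in chondrocytes, 73.3 and 57.4 CPM in osteoblasts and 62.7 and 76.6 CPM in stromal cells. B cells had 48.1 and 44 CPM. Of the skeletal classes, only the hypertrophic chondrocytes of control callus lay above the interval of its empty droplets, 101 CPM (82 to 124). That level gives the make-up of free RNA, not the amount in a cell.

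Chondrocytes and hypertrophic chondrocytes were made of 15 and 7 clusters, and the factors were graded over them. The cluster with the most Ihh, a signal of prehypertrophic cells, at 763 CPM, had the highest Mef2c of the skeletal clusters, 1072 CPM, and Foxa2 at 33.2 CPM, with 85 control and 55 GC cells. The hypertrophic cluster with 564 CPM of Ihh and 31694 CPM of Col10a1 had the highest Runx2 of the skeletal clusters, 371 CPM. In the chondrocyte cluster with the least Col10a1, 1143 CPM, Sox5 was at 177 CPM, Mef2c at 96.8 CPM and Runx2 at 128 CPM. Sox9 was highest, 2902 CPM, in a chondrocyte cluster with 1390 CPM of Col10a1 that held 204 control and 3 GC cells.

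**Figure D2:**
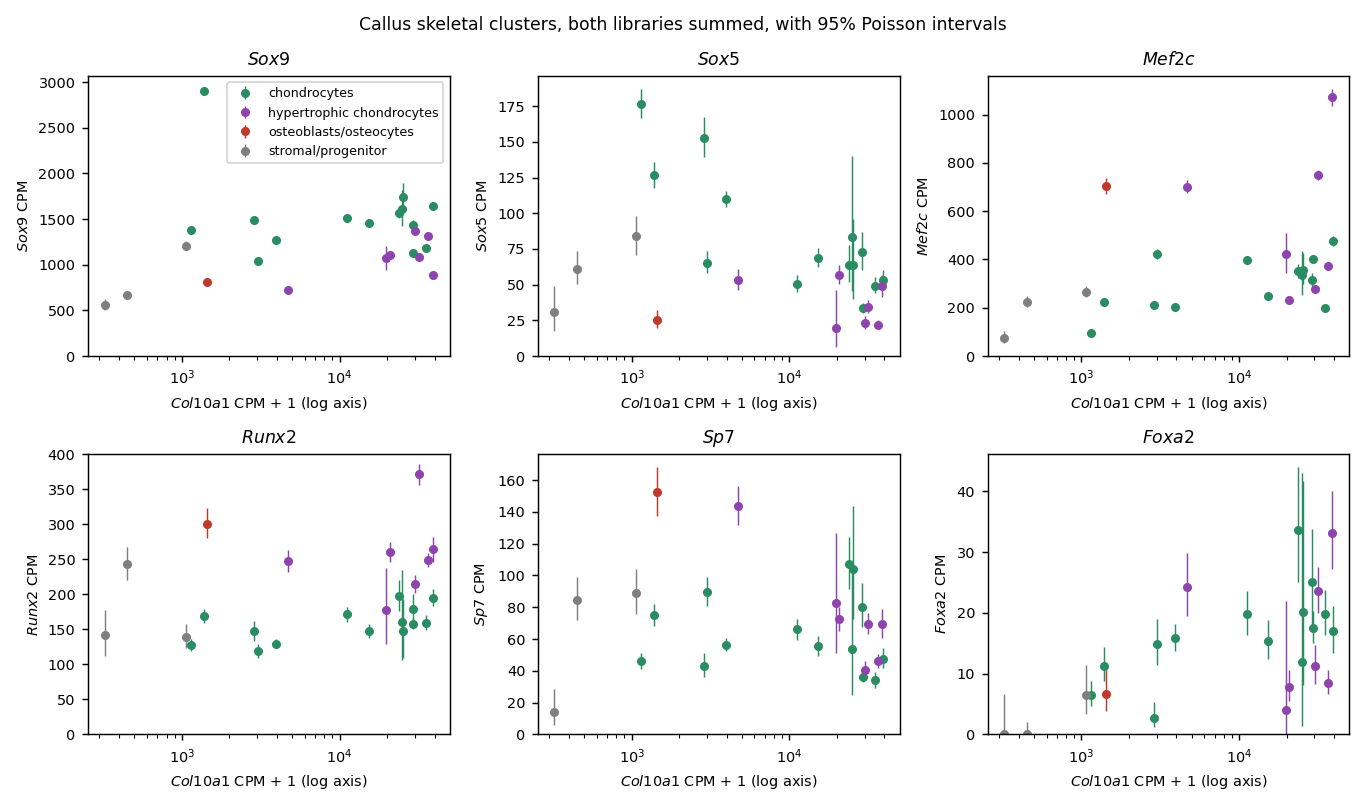
Levels of Sox9, Sox5, Mef2c, Runx2, Sp7 and Foxa2 (CPM, y axis of each panel) against Col10a1 (CPM + 1, log x axis) in the callus clusters of the 4 skeletal classes, 1 point per cluster over both libraries, coloured by class, with 95% Poisson intervals. Sox5 was highest at low Col10a1, with 177 CPM at 1143 CPM, and Runx2 reached 371 CPM at 31694 CPM.

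Over the 57 callus clusters of at least 30 cells, the pattern of each gene was compared with 13775 genes as the Pearson correlation of log2(CPM + 5), which is a description because the clusters share libraries and depth. The genes most like Sox9 were Col11a1, Acan and Ccdc80 (r = 0.97 for each), and those most like Sp7 were Col1a2, Itga10 and Snhg18 (r = 0.94 for each). Runx2 had no partner as close: Vegfa (0.73), Trps1 (0.73) and Slc39a14 (0.70) came first. Runx3 was nearest to Ccr2, Tpt1 and Pfkp (0.69, 0.68 and 0.68), and Mef2c to Gna11, Gbf1 and Eef1akmt2 (0.80, 0.80 and 0.78). Sox5 was nearest to D630045J12Rik, Baiap2l1 and Ikbip (0.93, 0.92 and 0.91), Sox6 to Cdr2, Gpsm2 and Garem1 (0.84, 0.82 and 0.81), Dlx5 to Sobp, Hoxa10 and Plxnb1 (0.92, 0.91 and 0.91) and Foxa2 to Pcolce2, Cdh19 and Panx3 (0.91, 0.91 and 0.90). Among the members, Sox9 went with Sp7 (0.92), Sox5 (0.89), Dlx5 (0.86) and Foxa2 (0.83), Sp7 with Dlx5 (0.89), and Runx2 with Runx3 (0.55).

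UMIs of bone and cartilage factors fell on the same barcodes. Of 3549 chondrocytes, 1508 had UMIs of both Runx2 and Sp7 (42.5%, interval 40.9% to 44.1%), and of 134 osteoblasts 94 did (70.1%, 61.6% to 77.7%). Runx2 and Sox9 were found together in 71.3% of chondrocytes, 76.3% of hypertrophic chondrocytes and 79.9% of osteoblasts. These shares rest on depth, and the part of free RNA in them was not tested. Sp7 in chondrocytes, at 57.5 and 52.9 CPM, was above the 2.22 and 2.93 CPM of B cells, the reference for free RNA. The 69.6 CPM of the empty droplets of control callus (interval 53.8 to 88.5) gives the make-up of free RNA, not the amount in a cell. At 1000 UMIs per cell, Runx2 and Sp7 were found together in 0.878% of chondrocytes and 2.27% of osteoblasts, and 5.92% of chondrocytes with a Runx2 UMI also had one of Sp7, against 6.94% of those without. For Sox9 the corresponding shares were 73.8% and 71.4%. In 132 thinned osteoblasts Sox9 was seen in 54.5% of cells with and 41.4% of cells without a Runx2 UMI.

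In trabecular bone the skeletal factors were nearly absent outside the small stromal class. Over all cells, Sox9 had 3 UMIs in control and 10 in GC, Sp7 4 and 9, Dlx5 17 and 14, and Foxa2 0 in both. The 47 stromal cells held 96.8% of the Dlx5 UMIs, 92.3% of those of Sp7 and 76.9% of those of Sox9. Their levels over both libraries were 81.9 CPM of Dlx5 (30 UMIs, interval 55.3 to 117), 32.8 CPM of Sp7, 27.3 CPM of Sox9 and 112 CPM of Runx2. Sox5 was highest in the same stromal cells, 8.35-fold the next class (2.21 to 46.6). Sox6 was in erythroid cells (179 CPM in control, 153 CPM in GC, 93.6% of its UMIs), Runx3 was highest in natural killer cells (932 CPM over 28 cells), and Mef2c was in plasmacytoid dendritic cells (1166 and 856 CPM), B cells (647 and 642 CPM) and megakaryocytes (566 and 591 CPM). Runx2 was highest in plasmacytoid dendritic cells, at 845 CPM in 33 control and 622 CPM in 10 GC cells, which was 6.87-fold the stromal level.

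Callus and trabecular bone were then compared within classes and conditions, over 18 comparisons in which 53 pairs of member and class had at least 50 UMIs. A difference was counted when log2(CPM + 5) differed by at least 2-fold, which 19.9% of all gene pairs did in the direction of higher in callus and 15.2% in that of lower. Runx2 was counted higher in callus in 9 of 13 comparisons and lower in 1, the plasmacytoid dendritic cells of control (332 against 845 CPM). In mature neutrophils it was 252 CPM in callus and 23.3 CPM in trabecular bone of control mice, 10.8-fold (9.25 to 12.7), and 127 against 20.1 CPM in GC mice, 6.31-fold (5.18 to 7.67). In monocytes the levels were 219 against 27.4 CPM, 8.01-fold, and 139 against 20.1 CPM, 6.93-fold. Both callus libraries thus lay above both trabecular libraries in each of these classes. Of all genes, 30.3% in control and 23.5% in GC mature neutrophils were counted higher in callus, and 11.2% and 13.5% in monocytes.

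Runx3 was counted higher in callus in 7 of 14 comparisons and lower in 1, the immature neutrophils of control, where 24 callus cells had 0 UMIs and the interval of the ratio, 0 to 5.72, held 1. It was 4.09-fold and 3.88-fold higher in the monocytes of control and GC callus. In T cells the intervals of the ratio held 1, with 378 against 404 CPM in control and 364 against 324 CPM in GC. Mef2c was counted higher in 4 of 13 comparisons and lower in 2, which were the monocytes of control (50.7 against 162 CPM, 0.314-fold) and of GC (31.5 against 98.1 CPM, 0.320-fold). Of all genes, 23.9% in control and 26.2% in GC monocytes were counted lower in callus. Sox6 in erythroid cells was 6.89-fold and 13.3-fold higher in callus. Among all genes, 16.4% in control and 33.8% in GC erythroid cells were counted higher in callus. Sox9 was counted higher in all 7 of its comparisons, 6 of them in blood classes with 0 UMIs in trabecular bone, where callus levels were 49.4 to 124 CPM beside 1026 CPM in the empty droplets of control callus. With 0 UMIs in trabecular bone, Sox9 could reach the entry limit only through its callus count. The direction of those 6 comparisons was therefore fixed by the entry rule. The part of free RNA in these differences was not tested. The single comparison of Dlx5, stromal cells of GC mice, was lower in callus (18.5 against 56.7 CPM, 0.327-fold, interval 0.176 to 0.645).

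**Figure D3:**
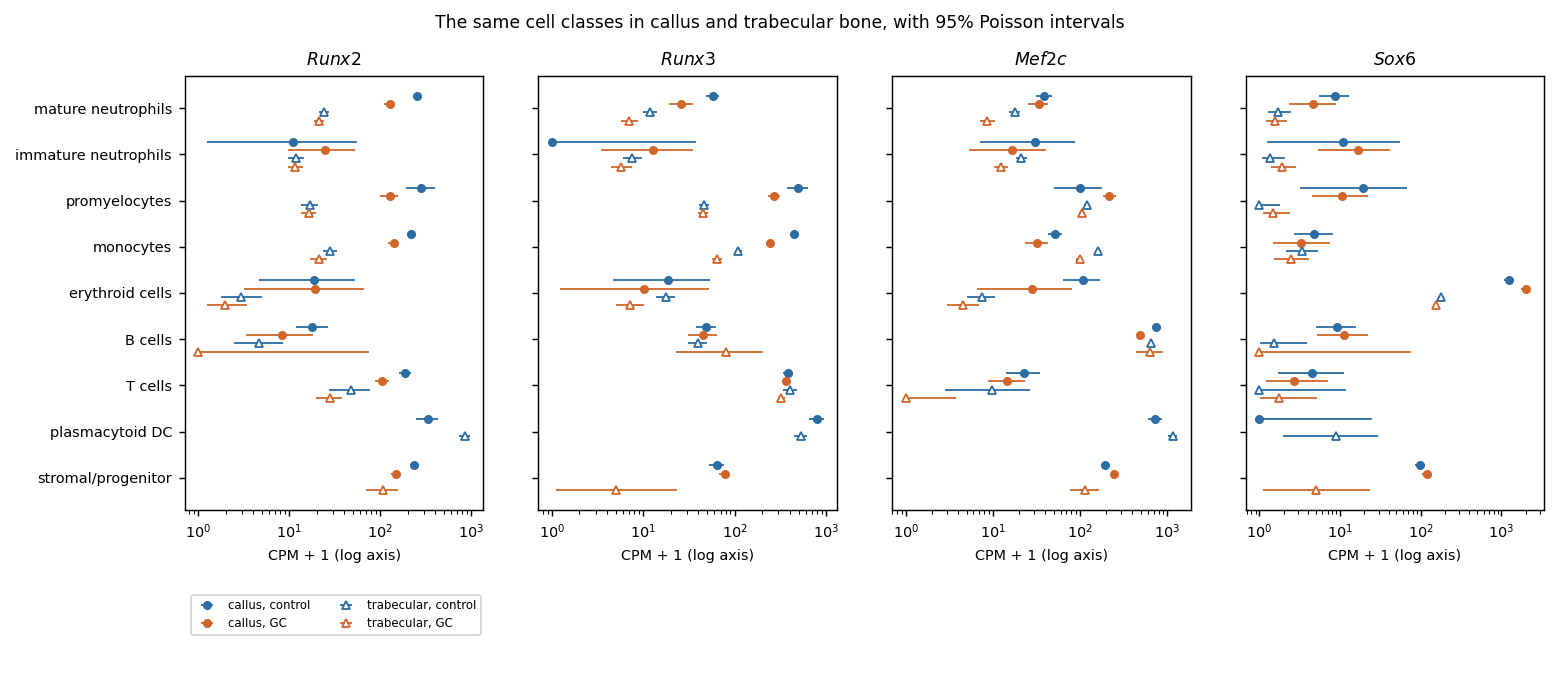
Levels of Runx2, Runx3, Mef2c and Sox6 (CPM + 1, log x axis) in classes found in both tissues (y axis), with callus as filled circles, trabecular bone as open triangles, control in blue and GC in orange, with 95% Poisson intervals and classes of fewer than 15 cells left out. Runx2 in callus mature neutrophils was at 252 and 127 CPM, above the 23.3 and 20.1 CPM of trabecular bone.

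The main question of the design was how GC changed the cells. In the skeletal classes of callus, none of 34 pairs of member and class with at least 50 UMIs differed 2-fold between GC and control on the scale of CPM + 5, which is used for every count of 2-fold differences. The share of all genes that did was 1.01% in chondrocytes, 0.469% in hypertrophic chondrocytes, 2.18% in osteoblasts and 2.74% in stromal cells. The counting intervals of the ratios left some of them apart from 1. In chondrocytes 7 of 9 intervals lay below 1 and 1 above, in hypertrophic chondrocytes 4 of 9 below and 1 above, in osteoblasts 3 of 8 below and 1 above, and in stromal cells 2 of 8 below and 2 above. These intervals hold no difference between mice, which cannot be told apart from the treatment with 1 library each. Cell calling differed too: control callus cells were called against empty droplets, whereas all listed GC callus barcodes were taken as cells without that step. The part of this unequal calling in the callus ratios was not tested.

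Runx2 was lower in GC in every skeletal class. The ratio of GC to control was 0.831 in chondrocytes (interval 0.797 to 0.866), 0.852 in hypertrophic chondrocytes (0.817 to 0.889), 0.821 in osteoblasts (0.709 to 0.95) and 0.626 in stromal cells (0.542 to 0.723). Sp7 and Dlx5 were under 1 in the same 4 classes, from 0.770 to 0.976 and from 0.453 to 0.831, each with 3 of 4 intervals below 1. Under alternative processing settings, Sp7 kept its direction in 11 of 17 in stromal cells, 16 of 18 in chondrocytes and 16 of 17 in osteoblasts. Dlx5 kept its direction in 12 of 16 in osteoblasts and 16 of 17 in hypertrophic chondrocytes. In the remaining skeletal classes neither gene turned. Of the genes measured in all 4 classes, 17.5% were under 1 in every one. Dlx5 in stromal cells came nearest to the 2-fold mark without reaching it, at 40.9 CPM (75 UMIs) in control and 18.5 CPM (44 UMIs) in GC, 0.453-fold (0.305 to 0.666) and a log2 difference of -0.96.

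The same held inside clusters, a comparison added after the class values had been seen. Of the 17 skeletal clusters with at least 15 cells of each library and 50 UMIs of Runx2, all 17 had a ratio under 1 and 13 had an interval below 1, with ratios from 0.484 to 0.999. Of 1562 genes measured in all these clusters, 4.48% were under 1 in every one. Sp7 was under 1 in 13 of 16 clusters, 11 with an interval below 1, and Dlx5 in 11 of 14, 4 with an interval below 1 and 1 above. Sox9, by contrast, was under 1 in 8 of 18 clusters and over 1 in 10, with 7 intervals on either side.

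GC and control chondrocytes came in part from different clusters. The part of the unequal cell calling in this split was not tested. Of the 15 chondrocyte clusters, 5 drew more than 90% of their cells from GC callus (1066 GC and 10 control cells), with median UMIs of 1442 to 5752 per cluster, and 3 drew more than 90% from control (631 control and 41 GC cells), with medians of 21830 to 29974. Chondrocytes as a class had a median of 26397 UMIs in control and 5629.5 in GC. Without the clusters of 1 library, the log2 difference of Runx2 in chondrocytes was -0.36 in place of -0.26, while that of Sox9 was -0.05 in place of -0.25 and that of Sox5 -0.11 in place of -0.36.

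**Figure D4:**
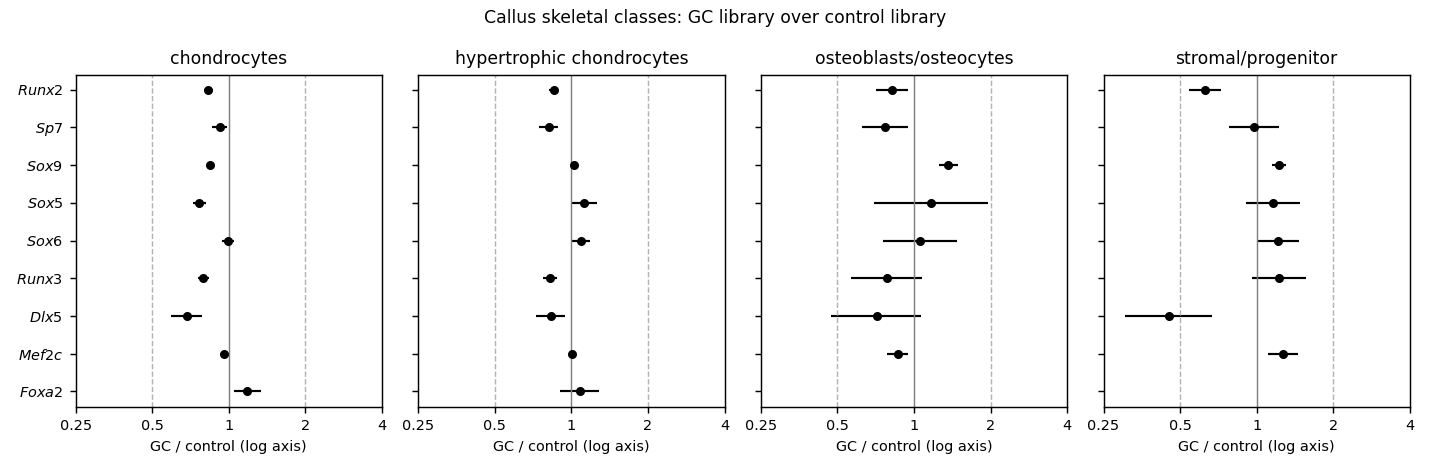
Ratio of GC to control level (log x axis) for each member (y axis) in the 4 skeletal classes of callus, with 95% counting intervals, dashed lines at 0.5 and 2 and no point where a member had too few UMIs. Runx2 lay at 0.626 to 0.852 in all 4 classes, and Dlx5 in stromal cells, at 0.453, was short of 2-fold on the scale of CPM + 5.

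Sox9 went both ways. It was 0.840-fold in chondrocytes (0.829 to 0.851), 1.02-fold in hypertrophic chondrocytes, with an interval that held 1, 1.36-fold in osteoblasts (1.25 to 1.49) and 1.22-fold in stromal cells (1.15 to 1.31). The direction in stromal cells differed between clusters, with 0.670-fold and 0.761-fold in 2 of them and 1.23-fold in the third, which held 24 control and 106 GC cells, and the class difference kept its sign in 11 of 18 alternatives (log2 difference -0.58 to 0.45). Thinning to 1000 UMIs turned the osteoblast difference to a log2 difference of -0.33. Sox5 was 0.767-fold in chondrocytes (0.725 to 0.811) and over 1 in the other 3 classes, with intervals that held 1. Sox6 was between 0.989-fold and 1.21-fold. Mef2c was 0.862-fold in osteoblasts (0.784 to 0.948), 1.27-fold in stromal cells (1.11 to 1.45), 0.957-fold in chondrocytes and 1.01-fold in hypertrophic chondrocytes. Foxa2 was 1.18-fold in chondrocytes (1.04 to 1.34). Under alternatives, this direction of Foxa2 was kept in 16 of 18 (log2 difference -0.04 to 0.67). That of Mef2c in stromal cells was kept in 14 of 17 (-0.14 to 0.40), and that of Sox5 in chondrocytes in 17 of 18. Runx3 was 0.793-fold in chondrocytes (0.754 to 0.834) and 0.826-fold in hypertrophic chondrocytes (0.775 to 0.881).

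Genes listed for the stress of cell isolation also differed between the same libraries. With 1 library per group, isolation and treatment cannot be told apart in these genes. Of 10 such genes, 8 were lower in GC chondrocytes (median log2 difference -0.24), 8 in hypertrophic chondrocytes (-0.16), 4 in osteoblasts (0.11) and 9 in stromal cells (-0.81), where the median of all genes was -0.06. In chondrocytes Dusp1 (200 and 440 CPM, 2.20-fold) and Hspa1a were higher, and Dusp1 alone differed 2-fold, as 1.01% of all genes did. In stromal cells Jun, Hspa1a and Hspa1b were 2-fold lower (2.74% of all genes differed 2-fold), and in osteoblasts Hspa1a was (2.18%). The part of these stress genes in the values above was not tested.

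In the other callus classes, 9 of 34 pairs of member and class differed at least 2-fold, 7 lower and 2 higher in GC, against 5.71% of all pairs of gene and class. Runx2 was lower in osteoclasts (33.5 CPM in control, 13.2 CPM in GC, 0.395-fold, interval 0.246 to 0.618) and promyelocytes (282 and 126 CPM, 0.446-fold), Runx3 was lower in mature neutrophils (56.7 and 25.1 CPM, 0.444-fold), and Mef2c was lower in osteoclasts (47.1 and 12.3 CPM) and higher in promyelocytes (100 and 218 CPM, from 11 and 135 UMIs). Sox9 was lower in B cells, conventional dendritic cells and osteoclasts and higher in promyelocytes. The promyelocyte class of GC callus included a cluster of 20 GC and 0 control cells with Elane, Mpo, Bmp2, Col10a1, Cpe and Acan among its leading genes. The other promyelocyte cluster, of 18 control and 46 GC cells, held 4 Sox9 UMIs over both libraries, against 4 and 77 in the class, and in it Mef2c was 2.01-fold (1.08 to 4.14). The shares of all genes that differed 2-fold were 2.89% in osteoclasts, 19.9% in promyelocytes, 7.28% in mature neutrophils, 6.44% in B cells and 6.78% in conventional dendritic cells. Sox9 in B cells, the reference for free RNA, was 101 CPM in control and 41.1 CPM in GC, and its part in the other values was not tested. Without doublet removal, Mef2c, Runx2 and Sox9 in osteoclasts turned to log2 differences of 0.12, 0.017 and 0.76.

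**Figure D5:**
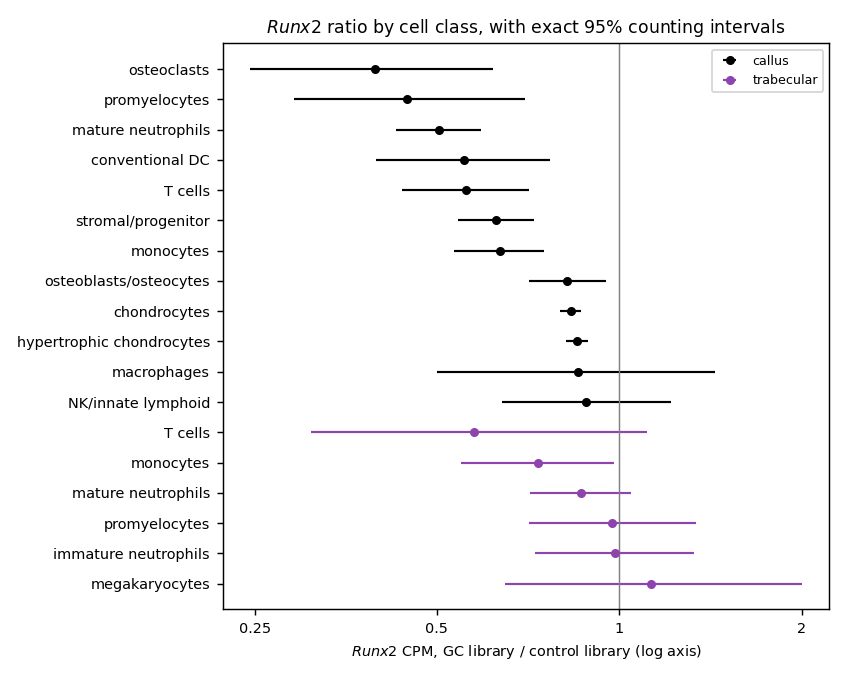
Ratio of GC to control level of Runx2 (log x axis) in each class of callus (black) and trabecular bone (purple), with 95% counting intervals and a line at 1. All 12 callus classes lay under 1, from 0.395 to 0.883, of which monocytes, macrophages and osteoclasts turned under some alternatives, and 5 of 6 trabecular classes did.

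Runx2 was under 1 in all 12 callus classes that could be measured, 10 of them with an interval below 1, where 4.89% of 1370 genes were under 1 in every class. The direction turned in monocytes in some alternatives (16 of 18 kept it, with log2 differences up to 0.34), in macrophages (11 of 14, up to 0.23) and in osteoclasts (15 of 16, up to 0.017). Mature neutrophils had the most Runx2 UMIs of the other named classes, 600 in control and 207 in GC, and a ratio of 0.504 (0.428 to 0.591). Most of the control neutrophils (972 of 1685) were in a cluster with 335 CPM of Runx2 that held 23 GC cells, and most of the GC neutrophils (1194 of 1316) were in one with 150 CPM. Within the latter the ratio was 0.709 (0.567 to 0.888), and within the former 0.796 (0.341 to 1.58). The monocytes split likewise, and their class ratio of 0.635 was 1.42 (0.769 to 2.91) in a cluster with 30 control and 281 GC cells and 0.890 (0.519 to 1.44) in another. In T cells, a single cluster, it was 0.558 (0.438 to 0.710). Mef2c in callus B cells was 753 and 490 CPM, 0.650-fold (0.573 to 0.736).

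In trabecular bone none of 21 pairs of member and class over 8 classes differed at least 2-fold on the scale of CPM + 5, against 6.56% of all pairs of gene and class. Of those 3251 pairs, 2125 were in B cells, where 43.1% of genes differed and which held 2 of the 21 member pairs. In the other classes the share of all genes was 0.368% to 6.91%. As plain ratios, Runx3 in erythroid cells (16.7 and 6.18 CPM, 0.371-fold) and in B cells (38.4 and 80.2 CPM, 2.09-fold, interval 0.555 to 5.58) and Mef2c in mature neutrophils passed 2-fold. Runx2 was 23.3 and 20.1 CPM in mature neutrophils (0.863-fold, 0.712 to 1.05) and 27.4 and 20.1 CPM in monocytes (0.735-fold, 0.548 to 0.981). Mef2c was under 1 with an interval below 1 in mature neutrophils (0.454-fold, 16.9 and 7.66 CPM), immature neutrophils (0.558-fold), monocytes (0.607-fold) and promyelocytes (0.868-fold), and Runx3 in 5 of 8 classes. The level of Mef2c in the remaining B cells was 647 and 642 CPM (0.991-fold, 0.675 to 1.41), while B cells themselves went from 308 to 16 cells and from 34.1% to 1.5% of the Mef2c UMIs of the library. All 16 GC B cells were in a cluster with 55 control cells, and further clusters of 175 and 78 control B cells held 0 GC cells. The ratio of Mef2c in B cells therefore compares unlike mixtures of clusters. So do the trabecular neutrophil ratios. The largest mature neutrophil clusters held 25 control and 939 GC cells, and 751 and 69. Immature neutrophil clusters held, among others, 218 and 183, 31 and 266, and 206 and 22. The part of this mixture was not tested. Skeletal members could not be compared between conditions, since the stromal class had only 13 control cells.

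Few of the factors known to work with the members differed 2-fold. Of 32 such genes, 30 were measured in chondrocytes, 28 in hypertrophic chondrocytes, 20 in osteoblasts and 22 in stromal cells, and 0, 1, 0 and 1 differed 2-fold: Foxc2 was lower in hypertrophic chondrocytes (53.9 and 21.6 CPM, 0.402-fold) and Sox4 in stromal cells (226 and 90.9 CPM, 0.403-fold). Of all genes, 1.01%, 0.469%, 2.18% and 2.74% differed 2-fold in the same classes. The counts of so short a list cannot show that it differed less than all genes. The median log2 differences of these factors were -0.08, -0.11, -0.17 and -0.19, beside -0.06 to 0.02 for all genes. Runx1, the third RUNX gene, was 0.797-fold in chondrocytes and in hypertrophic chondrocytes alike (331 and 264 CPM, and 377 and 301 CPM).

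The matrix genes that SOX9, SOX5 and SOX6 act on differed by class. In osteoblasts, where Sox9 was 1.36-fold, 12 of 12 measured genes of that list were lower in GC and 7 differed 2-fold, namely Col2a1 (7209 and 2416 CPM), Col9a1, Col9a2, Col9a3, Matn3, Hapln1 and Cnmd, with a list median of -1.34, where 48.8% of all genes were lower and 2.18% differed 2-fold. The list was lower in callus blood classes as well, with 11 of 11 genes in T cells (median -1.30), 11 of 11 in B cells (-1.18) and 10 of 10 in natural killer cells (-1.10), and the part of free RNA was not tested. In stromal cells 10 of 12 were higher, Col2a1 (4770 and 11552 CPM) and Hapln1 2-fold, while Cnmd was lower, with a median of 0.70. Of all genes 2.74% differed 2-fold there. In that class of 127 control and 192 GC cells, a cluster of 24 control and 106 GC cells also passed 10 chondrocyte markers. The part of that cluster was not tested. In chondrocytes all 13 were lower without a 2-fold difference (median -0.40), and in hypertrophic chondrocytes 12 of 13 were, Matn1 2-fold (median -0.43). Apart from any change, Col2a1, Hapln1, Cnmd and the collagen IX and matrilin genes are also markers by which the chondrocyte class was named.

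Bone genes downstream of RUNX2 and SP7 did not share a direction as a list. Of 10 measured in chondrocytes, 8 were higher in GC, with a median of 0.57, although Runx2 and Sp7 were lower there. Col1a1 (2860 and 8204 CPM) and Dmp1 (25.7 and 70.9 CPM) differed 2-fold, as 1.01% of all genes did. A chondrocyte cluster of 2 control and 215 GC cells, with a median of 5752 UMIs, had both among its leading genes. Cartilage genes and the osteoclast markers Ctsk and Mmp9 were among them too. Another cluster, of 2 control and 574 GC cells with a median of 2303.5 UMIs, had Col1a1 among its leading genes. Beside it stood cartilage genes, the immunoglobulin gene Iglc1, the plasma cell marker Jchain and the neutrophil markers Camp and Ngp. The part of these clusters was not tested. In osteoblasts 6 of 10 were lower and Bglap, which encodes osteocalcin, was the one with a 2-fold difference (1668 and 799 CPM). Among hypertrophic genes, Mmp13, the collagenase of the terminal stage, was higher in GC chondrocytes (87.2 and 210 CPM) and lower in hypertrophic chondrocytes (3300 and 1566 CPM) and stromal cells (1532 and 608 CPM), Col10a1 was lower in osteoblasts (2186 and 540 CPM), and Panx3 was higher in stromal cells (25.1 and 59.3 CPM). Of all genes, 0.469% differed 2-fold in hypertrophic chondrocytes, 2.74% in stromal cells and 2.18% in osteoblasts. Hypertrophic clusters with Mmp13 first among their leading genes held 381 control and 70 GC, 143 and 209, and 93 and 144 cells. A cluster without it there held 18 and 270. The part of this mixture was not tested. Mmp13, Col10a1, Panx3, Bglap and Dmp1, too, serve as markers of the classes.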

How the data were processed

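Droplet 3′ single-cell RNA-Seq libraries, 1 per group, were analysed from raw UMI counts per gene and barcode as deposited by the authors. The submitters' processing notes name Cell Ranger 5.0.1, Seurat 3.2.0 and build mm10, and the matrix headers name Cell Ranger 4. Of the matrices, 3 list 6794880 barcodes with empty droplets included, and that of GC callus lists 7762 barcodes.

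In the full matrices cells were called by a UMI cutoff and a Monte Carlo test against empty droplets (10000 simulations, at least 500 UMIs). In GC callus all 7762 listed barcodes were taken as cells without that test. Cells with fewer than 200 genes or more than 10% mitochondrial UMIs, and those with the highest doublet scores (0.8% per 1000 cells), were removed. Library totals ran from 41239842 to 95852254 UMIs. Both libraries of a tissue were clustered together with the Leiden algorithm at resolution 1 (30 components, 15 neighbours), leaving out the 9 members, their partner factors and stress genes. Classes were named from at least 3 markers by a rule settled after the clusters had been seen, and 812 callus cells stayed unnamed.

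UMIs were summed per class and library and divided by the class total (CPM). Intervals are exact 95% Poisson, exact conditional (ratios) and exact Clopper-Pearson (shares, on cells thinned to 1000 UMIs) and cover counting error only. A gene entered a comparison with at least 50 UMIs over both libraries, in classes of at least 15 cells per library, and was counted as different at 2-fold or more on CPM + 5. Where a count is 0, the limit given is that of 3 UMIs. Named genes were all 9 members, the called genes of fixed lists of partner and target genes, and the 3 genes most like each member. The members and lists were chosen with earlier results of these data known. The comparisons within clusters, without clusters of 1 library and in cells of at least 5000 UMIs were added after the data had been seen. Scripts were tested on simulated data. The software was scanpy 1.11.5 with igraph 0.11.9 and leidenalg 0.10.2, on Python 3.11.15 with scikit-learn 1.9.0, numpy 2.4.6, pandas 2.3.3 and scipy 1.17.1.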

Additional observations from a re-analysis of the deposited data

Results flagged for a closer look

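Among 14 pairs of member and class measured in both tissues, 2 differed in opposite directions between GC and control with both counting intervals off 1. Sox6 in erythroid cells had a log2 difference of 0.71 in callus, from 43 control and 50 GC cells, and -0.22 in trabecular bone. Under alternative processing settings the callus value ran from 0.14 to 2.84. The trabecular value ran from -0.48 to 0.40 and kept its sign in 16 of 17 settings. Mef2c in promyelocytes had a log2 difference of 1.08 in callus, from 11 and 135 UMIs, and -0.20 in trabecular bone. The callus class of GC included a cluster of 20 GC and 0 control cells with Col10a1 and Acan among its leading genes, and in the other cluster the log2 difference was 0.97. The difference between the tissues was not tested, since each rests on 1 library per group.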

How the results depend on the processing

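The highest skeletal class was kept by 7 to 9 of the 9 members under the alternatives run, while the levels themselves moved beyond their counting interval in 66 of 81 cases without abundant genes and in 57 of 81 after thinning. Between GC and control, the count of skeletal pairs differing 2-fold went from 0 to 1 with a pseudocount of 1 CPM and to 1 with the B cell level taken off. In the other callus classes the count of 9 was 5 with the UMI cutoff alone, with at most 5% mitochondrial UMIs, at Leiden resolution 2, without shared barcodes, with a pseudocount of 20 CPM and in cells of at least 5000 UMIs, 4 after thinning or with the B cell level taken off, 14 from 20 UMIs and 1 from 200 UMIs. In trabecular bone the count of 0 became 1 without doublet removal and after thinning, 2 with the UMI cutoff alone, without abundant genes and from 20 UMIs, and 3 with a pseudocount of 1 CPM. The number of pairs measured changed with the setting, so a lower count need not mean a lost difference. In callus the UMI cutoff alone removed cells of the control library only, because no cutoff was applied to the GC callus barcodes. Callus values under that setting therefore set control cells with many UMIs beside GC cells of any depth. With the B cell level taken off, Mef2c and the B cell class were left out altogether. The share of all genes was not computed under these alternatives. The 12 callus classes with lower Runx2 became 6 of 6 measured after thinning, 7 of 7 from 200 UMIs and 7 of 7 in cells of at least 5000 UMIs. Among the pairs that differed 2-fold, directions turned in 5 cases: Mef2c in promyelocytes (log2 difference -0.16, UMI cutoff alone), Mef2c, Runx2 and Sox9 in osteoclasts (0.12, 0.017 and 0.76, no doublet removal) and Sox9 in osteoclasts (0.40, Leiden resolution 2). Pairs below 2-fold turned as well, for example Sox9 in stromal cells (0.29, range -0.58 to 0.45), osteoblasts (0.44, -0.33 to 0.60) and mature neutrophils (-0.40, -0.42 to 2.44), Mef2c in monocytes (-0.61, -1.24 to 1.13) and Runx3 in promyelocytes (-0.86, -0.96 to 0.33). The cause was not tested. Runx2 was lower in GC under every alternative run in chondrocytes (-0.36 to -0.08), hypertrophic chondrocytes (-0.41 to -0.12), osteoblasts (-0.51 to -0.23) and stromal cells (-0.68 to -0.25), but turned in monocytes (0.21 without clusters of 1 library, 0.34 without doublet removal) and in macrophages (0.23 without doublet removal). No paired analysis was possible because each group has 1 library.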
